A study of Homo sapiens with 40 samples.

Results

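The tripartite motif (TRIM) mRNAs were described across 40 RNA-Seq libraries of HEK293 cells, an established human embryonic kidney line. Members were chosen by symbol and by level, as the numbered TRIM symbols with a mean of at least 1 CPM (counts scaled to a library total of 1 M, where M stands for mega) in input RNA of control siRNA cells. Of 72 such symbols among 55765 counted, 41 passed and 31 did not, and 3 of those 31 had no count in any library. TRIM7 (1.60 CPM) and TRIM47 (2.54 CPM) lay just inside the threshold, and TRIM43 (0.87 CPM) and TRIM29 (0.66 CPM) just outside. The family was selected on a measured contrast, the move towards polysomes after CNOT1 siRNA, which was largest for TRIM45, so its values are given below as a description that supports nothing.

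TRIM proteins carry a RING finger, 1 or more B-boxes and a coiled coil, and most act as E3 ubiquitin ligases that take ubiquitin from E2 enzymes. The C-terminal part divides them into classes: a PRY-SPRY domain in many antiviral TRIMs, NHL repeats in RNA regulators such as TRIM71, and a PHD finger with a bromodomain in the nuclear corepressors of the TIF1 class. TRIM25 and TRIM56 also bind RNA and act in the sensing of viral nucleic acids.

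In the RNA immunoprecipitation experiment (RIP), RNA was recovered with antibodies to endogenous eIF4A1, eIF4A2 or DDX6 and sequenced, as was total RNA, in 3 libraries for each group. These 3 proteins are DEAD-box helicases: eIF4A1 and eIF4A2 are paralogs of the initiation helicase, and DDX6 is a repressor found in P bodies. In the gradient experiment, cells received control or CNOT1 siRNA, and input RNA, subpolysomal fractions (1 to 5) and polysomal fractions (6 to 11) were each sequenced in 4 libraries. CNOT1 is the scaffold of the Ccr4-Not deadenylase complex. In the third experiment, total RNA was sequenced after control siRNA or siRNAs to TNRC6A and TNRC6B, which bridge Argonaute and Ccr4-Not in miRNA silencing, in 2 libraries for each group.

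CNOT1 itself showed that the labels of 2 libraries could not be relied on. On library totals alone, CNOT1 lay at 447, 460 and 469 CPM in polysomal libraries 1, 2 and 4 of control siRNA, but at 27.4 CPM in the library labelled replicate 3. In the CNOT1 siRNA polysomal libraries it lay at 28.5, 22.9 and 31.5 CPM, but at 590 CPM in the library labelled replicate 3. Both libraries were left out of the fit, and the counts of calls with all 24 gradient libraries as labelled are given beside each comparison. CNOT1 was at 593 to 657 CPM in control input and 36.2 to 41.1 CPM after CNOT1 siRNA. TNRC6A was at 172 and 197 CPM in controls and 39.2 and 66.2 CPM after TNRC6A/B siRNA, and TNRC6B at 65.4 and 76.1 CPM and at 17.1 and 26.9 CPM. Libraries held 15.4 to 46 M counts. Of the HEK293 markers, NEFM (median 2860 CPM), NEFL (719), VIM (421) and LIN28B (192) were high. KRT18 (21.2), INA (6.15) and KRT8 (4.74) were lower, and PAX2 was low (0.305). Of the markers of other cell types, leukocyte PTPRC (0), hepatocyte ALB (0.0747), muscle DES (0.397) and astrocyte GFAP (0.436) had medians at or near 0. Fibroblast COL1A1 did not, with a median of 5.78 CPM (1.29 to 19.9). The labels do not say that replicates were separate cultures, so p-values measure the spread among these libraries. A change in every cell and a change in part of the cells cannot be told apart in these bulk samples.

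Short stretches of 4 mRNAs are shown because eIF4A2 was studied for its binding to purine-rich 5′UTRs. Each is the 30-base window of the annotated 5′UTR (GRCh37) with the most of 8 purine tetramers (AAAA or AAGA, AGAA or AGAG, GAAA or GAAG, GAGA or GGAA). The tetramers are in capitals and were counted on the mRNA strand without overlap. The windows end 428 (TRIM45), 188 (TRIM52), 35 (TRIM39) and 664 (TRIM28) bases before the start codon. The study reported purine enrichment in 5′UTRs, above all just before the start codon, and these windows were not chosen by that position. Windows across an exon junction were left out, and ties went to the window nearest the 5′ end. The distances therefore do not show where tetramers lie in the whole 5′UTR. TRIM45, TRIM52 and TRIM39 had positive shifts towards polysomes after CNOT1 siRNA, and TRIM28 was the most abundant member. They are picked examples and do not stand for the family.
TRIM45, chr1:117664252-117664281, minus strand, exon 1: gcgcgcctttcgcAGAGGGAAggagcAAGA
TRIM52, chr5:180688003-180688032, minus strand, exon 1: ctgctctgtccccaccgatcccAGAGAGAG
TRIM39, chr6:30296761-30296790, plus strand, exon 2: AGAAgtatgctgagctAGAGttGAAGGAAG
TRIM28, chr19:59055431-59055460, plus strand, exon 1: agtgacgcAGAGgctgGAGAcgactctacg
A window with at least 2 tetramers was found in 24 of 39 TRIM 5′UTRs of at least 30 bases (61.5%) and in 53.8% of the 11636 5′UTRs of protein-coding genes tested. At least 3 were found in 15 of 39 (38.5%) and in 26.3%, and at least 4 in 2 of 39 (5.1%) and in 9.7%. Over the whole 5′UTR the median was 1.81 tetramers per 100 bases for TRIM mRNAs and 1.68 for protein-coding genes, and TRIM39 was highest with 6.11. The median TRIM 5′UTR measured 242 bases against 147, and the median 3′UTR 1697 against 1353. Of the other members listed below for positive shifts, TRIM3 (0.53 tetramers per 100 bases), TRIM27 (1.13), TRIM4 (1.55), TRIM71 (0) and TRIM62 (0.49) lay below the TRIM median. TRIM13 (2.47), TRIM35 (2.70) and TRIM26 (2.935) lay above it. Across 39 members, tetramer density had Pearson's r of 0.03 and Spearman's rho of 0.04 with the eIF4A2 log2 fold change over total RNA. With the control log2 difference of polysomal from subpolysomal RNA they were -0.26 and -0.3.

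The 3′UTR of TRIM71 (LIN41), a let-7 target and RNA-binding repressor of embryonic cells, held 6 copies of CTACCTC, the reverse complement of bases 2 to 8 of let-7. They are printed because TRIM71 was among the mRNAs that rose after CNOT1 siRNA. All lie in exon 4 on the plus strand of chromosome 3 (GRCh37), with the match in capitals.
TRIM71, chr3:32933461-32933490: acattgcttaagtcCTACCTCatctttatt
TRIM71, chr3:32933541-32933570: gtgataatttctatCTACCTCataaatctt
TRIM71, chr3:32935994-32936023: gtaggtcagagataCTACCTCtttgtcctc
TRIM71, chr3:32937298-32937327: cttttgctgagtttCTACCTCacttgtggc
TRIM71, chr3:32937321-32937350: ttgtggcaagtcatCTACCTCatgttagca
TRIM71, chr3:32937396-32937425: gtgggagtgggaagCTACCTCtaaaagaaa
The mature miRNAs, from RefSeq (GRCh38.p14), share the seed (bases 2 to 8, capitals).
hsa-let-7a-5p: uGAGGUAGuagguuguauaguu
hsa-let-7d-5p: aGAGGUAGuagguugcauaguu
hsa-let-7g-5p: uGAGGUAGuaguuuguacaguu
hsa-miR-98-5p: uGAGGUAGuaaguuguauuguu
TRIM13, TRIM32, TRIM38, TRIM41, TRIM65 and TRIM66 held 1 match each, so 7 of 40 TRIM 3′UTRs had a match (17.5%), against 11.3% of 12769 3′UTRs of protein-coding genes tested. A match is a description of the letters and not a measured site.

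The TRIM mRNAs spanned a wide range of levels in control input RNA. All CPM from here on are scaled by TMM factors, edgeR's correction for library composition, and only the levels in this paragraph are per kb of exon. TRIM28 (KAP1), the corepressor of KRAB zinc-finger proteins, stood at 130 ± 16.1 CPM per kb (SD, n = 4), with no overlap with any other member. TRIM37, a centrosomal ligase (16.9 ± 0.673), and TRIM33, a TIF1-class regulator of SMAD signalling (16.2 ± 0.423), followed and did not differ from each other beyond their spread. TRIM71 stood at 2.55 ± 0.411 and TRIM45, which carries a filamin-type domain, at 1.63 ± 0.25. The lowest were TRIM56 (0.562 ± 0.0349), TRIM66 (0.381 ± 0.0616) and TRIM7 (0.236 ± 0.0183).

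**Figure D1:**
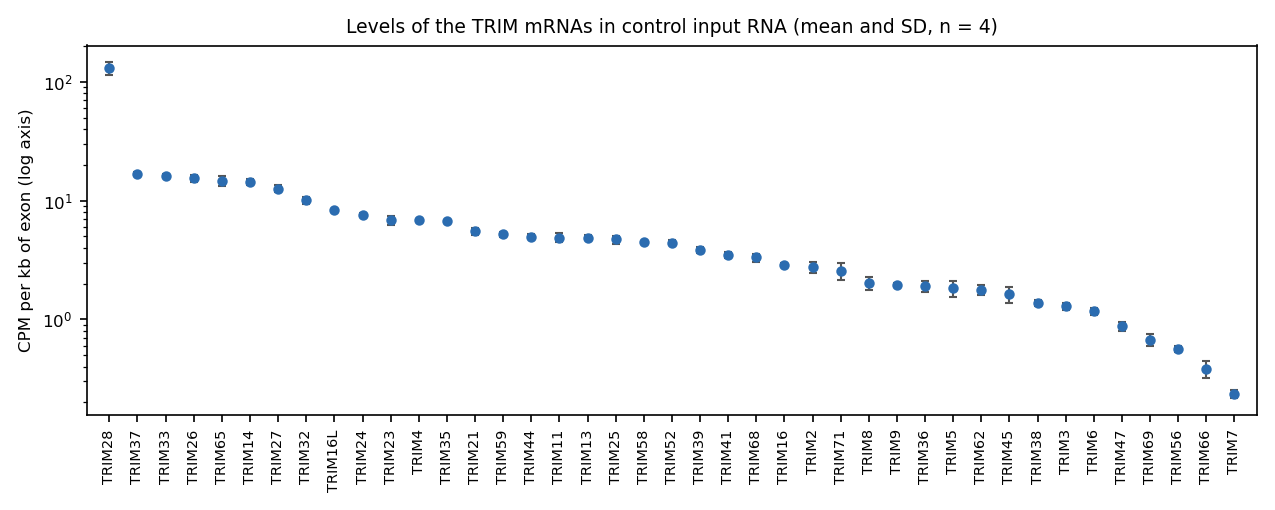
Level of each of the 41 TRIM mRNAs in input RNA of control siRNA cells, in CPM per kb of exon on a log axis, as mean and SD of 4 libraries. TRIM28 stands alone at 130 CPM per kb and TRIM7 is lowest at 0.236 CPM per kb.

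To describe the TRIM mRNAs in the immunoprecipitates, each was compared with total RNA. No control immunoprecipitate is among the libraries, so binding by a helicase was not tested against capture common to all immunoprecipitates. A gene was called where its FDR, the p-value adjusted by Benjamini-Hochberg over all genes tested, lay below 0.05. The TIF1-class mRNAs TRIM24, TRIM28 and TRIM33 were lower in all 3 immunoprecipitates. The mRNAs of the RING-less proteins TRIM14 and TRIM16, of the ligase TRIM41 and of TRIM8, a regulator of cytokine signalling, were higher in all 3. TRIM33 lay at 131, 151 and 160 CPM in total RNA, at 56.7, 56.9 and 79.4 CPM with eIF4A1, at 74.1, 73 and 71.4 CPM with eIF4A2, and at 92, 71.1 and 100 CPM with DDX6. Every immunoprecipitate of TRIM33 was below every total RNA library. It was called in all 3 comparisons, with a log2 fold change of -1.19 ± 0.17 (SE; FDR 7.04e-05 by edgeR's quasi-likelihood test) for eIF4A1, -1.02 ± 0.17 (FDR 0.000236) for eIF4A2 and -0.74 for DDX6.

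TRIM28 lay at 780, 872 and 533 CPM in total RNA and at 329 to 430 CPM across the 9 immunoprecipitates, again without overlap. Its log2 fold changes were -0.97 with eIF4A1, -1.0 with eIF4A2 and -1.07 with DDX6 (FDR 0.000611, 0.000497 and 0.00044 by edgeR). TRIM24, a chromatin reader, fell by 0.93, 0.86 and 0.63 on the log2 scale. TRIM66, the fourth TIF1 member, was not called in any of the 3 (0.02, 0.45 and -0.10), except with eIF4A2 when the replicate number was fitted as a block (0.47, FDR 0.0162 by edgeR). Of 7 genes for partners of TRIM28 (SETDB1, CBX1, CBX3, CBX5, CHD3, CHD4, ATF7IP), none was called higher, and 4, 3 and 3 were called lower with eIF4A1, eIF4A2 and DDX6, where 26.5%, 25.8% and 23.3% of all genes were. ATF7IP, a cofactor of the histone methyltransferase SETDB1, was at -1.49 with eIF4A1.

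TRIM8 lay at 26.8, 32 and 18.5 CPM in total RNA against 51.6, 63.1 and 42.9 CPM with eIF4A1, without overlap (log2 1.03 ± 0.25, FDR 0.00341 by edgeR). With eIF4A2 (44.7, 58.2 and 30.4 CPM) 1 library lay among the total RNA values. The log2 fold changes of TRIM8 were 0.79 with eIF4A2 and 0.73 with DDX6, and both calls rested on single libraries. Without total RNA replicate 3 they were 0.59 (FDR 0.0745 by edgeR) and 0.54 (FDR 0.112). The eIF4A2 call of TRIM8 was also lost without eIF4A2 replicate 2 (0.54), and the DDX6 call without total RNA replicate 1 (0.76), DDX6 replicate 1 (0.74) or DDX6 replicate 2 (0.62).

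TRIM16, which binds galectins in autophagy, lay at 19.1, 18.8 and 18.2 CPM in total RNA and at 36, 36.6 and 32 CPM with eIF4A2 (log2 0.90 ± 0.11, FDR 2.86e-05 by edgeR). TRIM16L rose beside it in all 3 (0.89, 0.71 and 0.82), but TRIM16L is annotated as a pseudogene near-identical to TRIM16, so reads of the pair may be split wrongly. TRIM14, an adaptor of MAVS signalling, rose most among the members with DDX6 (0.86 ± 0.12, FDR 0.00011 by edgeR). TRIM44, which lacks a RING, went the other way, from 51.8, 61.5 and 62.4 CPM in total RNA to 32.7, 29.1 and 14.7 CPM with eIF4A2 (log2 -1.20 ± 0.24, FDR 0.000955 by edgeR). TRIM44 was also called lower with eIF4A1 (-0.93) and DDX6 (-0.81), the latter call lost without DDX6 replicate 2. The largest fall with DDX6 was that of TRIM52, a short TRIM without a C-terminal domain (-1.22 ± 0.19, FDR 0.000255 by edgeR). TRIM52 was also called lower with eIF4A1 (-0.83) and eIF4A2 (-0.66), the latter call lost without total RNA replicate 3. TRIM26, a PRY-SPRY ligase, fell by 0.86, 1.01 and 0.84 with eIF4A1, eIF4A2 and DDX6.

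Among the NHL-class mRNAs, TRIM71 lay at 19.5, 25.8 and 28.3 CPM in total RNA against 39.1, 33.5 and 50.3 CPM with eIF4A1 and 39.6, 44.6 and 51.2 CPM with eIF4A2. Neither immunoprecipitate overlapped total RNA (log2 0.74 and 0.88, FDR 0.00615 and 0.00208 by edgeR). With DDX6 TRIM71 reached 0.43 (FDR 0.0848 by edgeR), which was called with the replicate number as a block (0.43, FDR 0.00762 by edgeR). TRIM32, a ligase mutated in a limb-girdle muscular dystrophy, rose with eIF4A2 (0.59, FDR 0.00559 by edgeR) and stood at 0.05 with eIF4A1 and -0.02 with DDX6. TRIM3 fell with eIF4A1 (-0.44), a call lost without total RNA replicate 1 or 2 or eIF4A1 replicate 2 or 3. It also fell with DDX6 (-0.58), a call lost without DDX6 replicate 3 (-0.51, FDR 0.0539 by edgeR), and was not called with eIF4A2. TRIM2 was not called (-0.25, -0.33 and -0.14), except with eIF4A2 under the block (-0.31, FDR 0.0386 by edgeR). Of the RNA-binding pair, TRIM25 was not called (-0.15, -0.11 and -0.21), and TRIM56 (-0.28, -0.61 and -0.43) was called only with eIF4A2 under the block (-0.68, FDR 0.017 by edgeR).

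Over the whole family, 10 of 41 members (24.4%) were called higher and 11 (26.8%) lower with eIF4A1, where 26.1% and 26.5% of the 17474 genes tested were called. The counts were 10 and 11 with eIF4A2 (24.5% and 25.8% of all genes) and 9 and 11 with DDX6 (22.7% and 23.3%). Without total RNA replicate 1 the DDX6 counts were 5 and 10. These shares of the TRIM members lay near the background, and the median member was at -0.08, -0.08 and -0.10 beside 0.04, 0.01 and 0.01 for all genes. The summed HEK293 marker level was also lower in the immunoprecipitates (574 to 2480 CPM) than in total RNA (4670 to 5750 CPM), with 7, 7 and 6 of 8 markers called lower, and its part in the TRIM results was not tested.

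**Figure D2:**
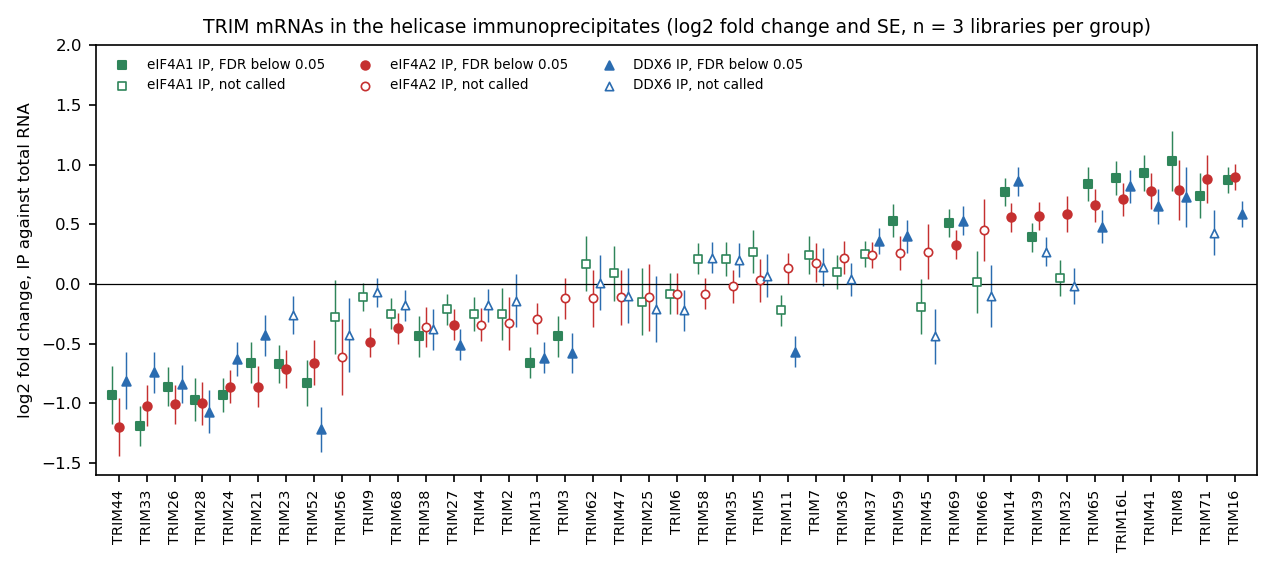
Log2 fold change of each TRIM mRNA in the eIF4A1, eIF4A2 and DDX6 immunoprecipitates against total RNA, with SE from the fit (n = 3 libraries per group). TRIM33, TRIM28 and TRIM24 lie below 0 with all 3 proteins and TRIM8, TRIM41 and TRIM16 above 0.

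The helicases were next compared with each other. Between eIF4A2 and eIF4A1 no TRIM mRNA was called by edgeR (0.973% of all genes were called higher and 0.0858% lower). Unadjusted p fell below 0.05 for 5 members, and DESeq2 called TRIM32 alone (0.55). With the replicate block 5 members were called, where 15.8% of all genes were: TRIM45 (0.44), TRIM32 (0.53), TRIM11 (0.36) and TRIM13 (0.37) higher with eIF4A2 and TRIM9 (-0.38) lower. Between DDX6 and eIF4A1 none was called by edgeR (0.0801% of all genes higher and 0.0114% lower) or DESeq2, 7 members had an unadjusted p below 0.05, and the block called 3, TRIM23 (0.43), TRIM33 (0.45) and TRIM65 (-0.37), beside 9.9% of all genes.

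Between eIF4A2 and DDX6, 3 members (7.32%) were called higher and 1 (2.44%) lower, where 9.82% and 11.3% of all genes were. TRIM11, a PRY-SPRY ligase of protein quality control, lay at 72.9, 67.6 and 76.4 CPM with eIF4A2 and 47.6, 42.1 and 43.8 CPM with DDX6 (log2 0.70 ± 0.13, FDR 0.00474 by edgeR). The groups of TRIM11 did not overlap, and the call held without any single library. TRIM45 lay at 17.4, 13.4 and 24.3 CPM with eIF4A2 against 12.2, 9.23 and 12.1 CPM with DDX6, and in total RNA at 13.8, 13 and 18.9 CPM. Every eIF4A2 library of TRIM45 was above every DDX6 library (0.72 ± 0.23, FDR 0.0425 by edgeR). That call was lost without eIF4A2 replicate 1 (0.75) or 3 (0.45), or without DDX6 replicate 1 (0.78), 2 (0.59) or 3 (0.77).

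TRIM32 lay at 60.2, 64.3 and 88 CPM with eIF4A2 against 45.6, 42.3 and 51.5 CPM with DDX6, without overlap (0.61 ± 0.15, FDR 0.0155 by edgeR). Its call was lost without eIF4A2 replicate 3 (0.42) or DDX6 replicate 2 (0.54). TRIM9, a neuronal ligase, was lower with eIF4A2 (-0.42, FDR 0.0286 by edgeR), at 16.1, 16.7 and 14.2 CPM against 19.8, 20.2 and 23 CPM. That call of TRIM9 was lost without eIF4A2 replicate 1 (-0.45) or 3 (-0.36), or DDX6 replicate 2 (-0.46) or 3 (-0.36). With the replicate block 10 members were called higher with eIF4A2 and 5 lower, where 40.5% of all genes were called, and TRIM3 (0.48), TRIM66 (0.55) and TRIM71 (0.46) were among those gained. Of 12 E2 genes, 6 were called lower with eIF4A2 than DDX6 and none higher (median -0.52), beside 11.3% and 9.82% of all genes.

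To see how the TRIM mRNAs lay in the gradient, polysomal RNA was compared with subpolysomal RNA in control siRNA cells. TRIM28 lay at 139, 137, 239 and 235 CPM in subpolysomal RNA and at 721, 607 and 425 CPM in polysomal RNA (log2 1.64 ± 0.21, FDR 2.36e-07 by edgeR). Its polysomal values were all above the subpolysomal ones, and subpolysomal replicates 3 and 4 were higher than 1 and 2. TRIM25, the ligase that modifies RIG-I, lay at 27, 23, 26.9 and 26.7 CPM against 45.7, 46.1 and 60.1 CPM (0.97), without overlap. TRIM47 (1.14) and TRIM7 (1.07), both PRY-SPRY ligases at low counts, were also higher in polysomes (FDR 0.000368 and 0.000967 by edgeR).

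At the other end, TRIM52 lay at 150, 120, 87.1 and 127 CPM in subpolysomal RNA and at 13.8, 14.4 and 17.2 CPM in polysomal RNA. Its log2 difference was -3.00 ± 0.17 (FDR 3.57e-13 by edgeR), the lowest among the 41. TRIM45 lay at 24.6, 25.5, 22 and 23.4 CPM against 5.09, 4.87 and 3.76 CPM, a log2 difference of -2.38 ± 0.18. TRIM3, a neuronal NHL protein, followed at 20.5, 19.8, 19.8 and 25.9 CPM against 8.04, 7.1 and 5.71 CPM (-1.63 ± 0.13, FDR 1.9e-10 by edgeR). None of these 3 mRNAs overlapped between fractions.

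By class, the TIF1 mRNAs TRIM28, TRIM24 (0.76) and TRIM33 (0.22) were called higher in polysomes, while TRIM66 was not called (-0.23). The call of TRIM33 was lost without subpolysomal replicate 3 (0.19) or 4 (0.15), or polysomal replicate 2 (0.22) or 4 (0.24). The mRNAs of the membrane-anchored proteins TRIM13 and TRIM59 were both called lower (-1.02 and -0.94). Of the NHL mRNAs, TRIM2 was higher (0.47), TRIM3 and TRIM32 (-0.79) lower, and TRIM71 not called (0.26). Of the 19 PRY-SPRY members 8 were higher and 6 lower.

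In all, 17 members (41.5%) were called higher in polysomes and 16 (39%) lower, where 33.7% and 38.4% of the 17115 genes tested were. After CNOT1 siRNA the counts were 19 (46.3%) and 11 (26.8%), against 35.9% in each direction for all genes. A change in these counts between the siRNAs belongs to the contrast on which the family was selected, so nothing is read from it. With all 24 libraries as labelled they were 18 and 14 in control cells and 19 and 10 after CNOT1 siRNA. Across 40 members, the control log2 difference had Pearson's r of 0.33 and Spearman's rho of 0.29 with log2 coding length, and across 41 members -0.15 and -0.20 with the eIF4A2 log2 fold change. These correlations are over genes that share libraries and are given as descriptions.

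In input RNA after CNOT1 siRNA, TRIM47, TRIM8 and TRIM71 rose most among the members and TRIM66, TRIM9 and TRIM52 fell most. Of 41 members 10 (24.4%) were called higher and 7 (17.1%) lower, where 19.6% and 21.1% of all genes were, so the shares lay near the background. With all 24 libraries as labelled 7 were higher and 6 lower. TRIM47 lay at 2.94, 2.95, 2.5 and 2.62 CPM in control input and 7.12, 6.53, 8.82 and 9.04 CPM after CNOT1 siRNA (log2 1.52 ± 0.21, FDR 8.59e-06 by edgeR). The groups did not overlap. An antisense gene covers 51.6% of the exon length of TRIM47, and the strand setting of the counting is not given in the sources used here, so reads of the pair may be mixed. Genes on the opposite strand likewise cover 27.6% of TRIM52, 19.9% of TRIM59, 19.3% of TRIM8 and 15.2% of TRIM39.

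TRIM8 rose from 15.9, 15.4, 13.5 and 12 CPM to 26.9, 30.1, 27.6 and 25.1 CPM (log2 0.95 ± 0.13, FDR 4.94e-06 by edgeR), without overlap. TRIM71, with the 6 let-7 matches printed above, rose from 22.2, 27.2, 19.1 and 20.3 CPM to 39.5, 42.2, 39.4 and 35.6 CPM (0.82 ± 0.13, FDR 3.33e-05 by edgeR). Of the other 6 members with a match, TRIM66 alone was called in the main fit, and it fell. TRIM38 was also called without CNOT1 siRNA input replicate 3. With the block TRIM38 (-0.24) and TRIM65 (0.35) were called too. TRIM69 (0.60), a ligase linked to microtubules, and TRIM33 (0.31) also rose. TRIM56 rose from 6.55, 6.44, 6.36 and 5.69 CPM to 8.58, 7.39, 8.32 and 8.11 CPM without overlap (0.37, FDR 0.0311 by edgeR), but its call was lost without control replicate 2, 3 or 4 or CNOT1 siRNA replicate 1, 3 or 4 (0.33 to 0.39).

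TRIM66 fell from 6.46, 5.03, 7.47 and 6.03 CPM to 3.74, 3.06, 3.4 and 3.57 CPM (log2 -0.86 ± 0.19, FDR 0.000917 by edgeR). TRIM9 fell from 17.6, 18.2, 16.5 and 17.3 CPM to 10.6, 12.1, 11.2 and 9.35 CPM (-0.69 ± 0.12, FDR 9.17e-05 by edgeR), and TRIM52 from 31.5, 31.3, 28.9 and 28.6 CPM to 20.2, 19.5, 19.2 and 20.4 CPM (-0.60 ± 0.14, FDR 0.00162 by edgeR). None of these 3 overlapped between the siRNAs. TRIM58 fell by 0.56 on the log2 scale. TRIM45 stood at 7.17, 8.31, 7.27 and 5.66 CPM in controls and 6.99, 7.6, 6.35 and 5.42 CPM after CNOT1 siRNA (-0.11 ± 0.15, FDR 0.595 by edgeR), with overlapping groups.

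The summed HEK293 marker level moved with the siRNA, from 5560 to 6000 CPM in control input to 3980 to 4370 CPM after CNOT1 siRNA, with 3 of 8 markers called lower and 1 higher, and its part in the TRIM results was not tested. Of 12 E2 genes none rose in input and 4 fell, beside 19.6% and 21.1% of all genes. Of 9 genes for RNA sensing (DDX58, IFIH1, DHX58, MAVS, TBK1, IKBKE, IRF3, IRF7, TMEM173), 3 rose and none fell, against the same background.

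**Figure D3:**
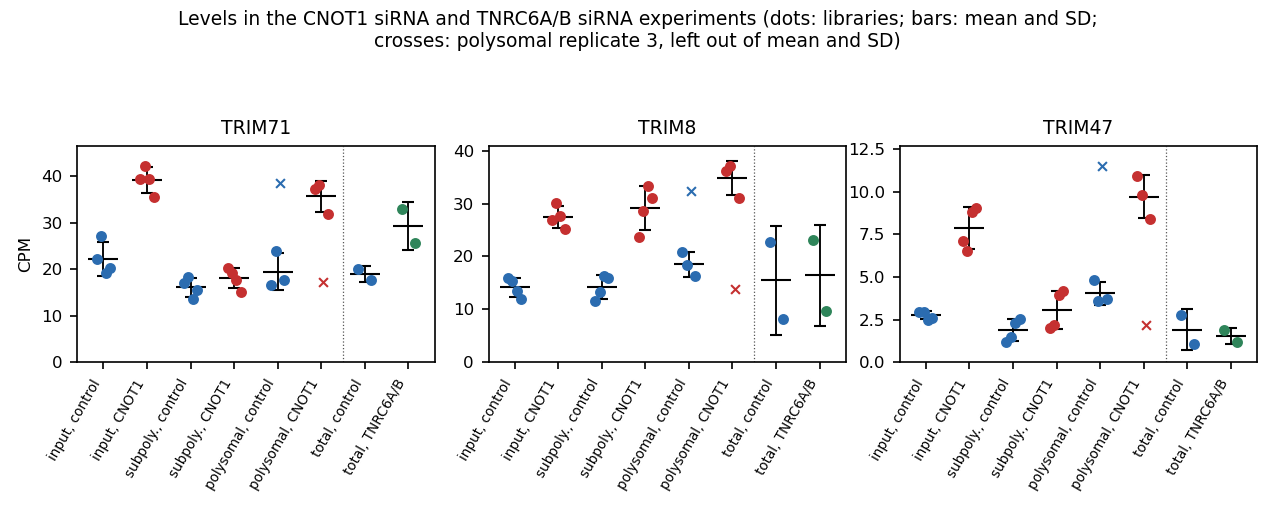
CPM of TRIM71, TRIM8 and TRIM47 in each library of the CNOT1 siRNA and TNRC6A/B siRNA experiments, with mean and SD as bars and the excluded polysomal replicate 3 libraries as crosses. In input RNA the 4 CNOT1 siRNA libraries lie above the 4 controls for each of the 3 mRNAs.

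The siRNA effects in subpolysomal and in polysomal RNA are the parts of the contrast on which the family was selected. Their counts and values are therefore descriptions, and nothing is read from them. In subpolysomal RNA 3 members (7.32%) were higher and 14 (34.1%) lower after CNOT1 siRNA, where 17.7% and 24.3% of all genes were, and with all 24 libraries as labelled the counts were 2 and 11. In polysomal RNA 12 (29.3%) were higher and 5 (12.2%) lower, where 17.1% and 14.6% of all genes were, and with RLE factors the polysomal split was 9 and 7. With all 24 libraries as labelled, neither a member nor any other gene was called in polysomal RNA.

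Subpolysomal TRIM52 fell from 150, 120, 87.1 and 127 CPM to 81.8, 61.8, 48.2 and 63.2 CPM, with no overlap (log2 -0.92 ± 0.14, FDR 1.56e-05 by edgeR). TRIM3 fell from 20.5, 19.8, 19.8 and 25.9 CPM to 12.1, 11.8, 11.1 and 13.5 CPM (-0.82 ± 0.12, FDR 7.99e-06 by edgeR), also with no overlap. TRIM8 rose there as in input, from 11.6, 13.3, 16.3 and 16 CPM to 23.7, 28.6, 33.4 and 31 CPM (1.03 ± 0.13, FDR 1.91e-06 by edgeR). TRIM69 (0.53) and TRIM47 (0.70, FDR 0.0249 by edgeR) rose too, but that of TRIM47 was lost without subpolysomal control replicate 1 (0.52) or 2 (0.61), or CNOT1 siRNA replicate 3 (0.56) or 4 (0.52).

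In polysomal RNA TRIM47 rose from 4.82, 3.62 and 3.72 CPM to 10.9, 9.82 and 8.4 CPM (log2 1.26 ± 0.25, FDR 0.000469 by edgeR), TRIM8 from 20.9, 18.3 and 16.3 CPM to 36.2, 37.1 and 31.1 CPM (0.91 ± 0.15, FDR 6.79e-05 by edgeR) and TRIM71 from 16.7, 24 and 17.6 CPM to 37.2, 38 and 31.9 CPM (0.88 ± 0.15, FDR 0.00013 by edgeR). The siRNA groups did not overlap for any of the 3. The polysomal libraries labelled replicate 3 held 11.5 CPM of TRIM47, 32.3 CPM of TRIM8 and 38.5 CPM of TRIM71 under the control label, and 2.18, 13.9 and 17.2 CPM under the CNOT1 siRNA label. TRIM9 (-0.69 ± 0.14, FDR 0.00065 by edgeR) and TRIM58 (-0.55 ± 0.11, FDR 0.000605 by edgeR) fell. TRIM66 fell by 0.85 on the log2 scale, a call lost without polysomal control replicate 1 (-0.62) or CNOT1 siRNA replicate 2 (-0.69).

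The shift is the log2 siRNA effect on polysomes less the log2 effect on the subpolysomal pool. It is the quantity behind the choice of the family, so its values and the counts past the threshold are descriptions only, and nothing is read from them. TRIM45 in subpolysomal RNA went from 24.6, 25.5, 22 and 23.4 CPM to 12.7, 12.7, 7.96 and 9.06 CPM after CNOT1 siRNA. In polysomal RNA it went from 5.09, 4.87 and 3.76 CPM to 5.65, 6.61 and 6.59 CPM. Neither fraction of TRIM45 overlapped between the siRNAs. The move was a fall in the subpolysomal pool (-1.17) with a smaller rise in polysomes (0.46), which was not called. The log2 ratio of polysomal to subpolysomal CPM of TRIM45 was -2.17, -2.27 and -2.49 in control gradients 1, 2 and 4 and -1.10, -0.89 and -0.43 in the CNOT1 siRNA gradients. The gradients of replicate 3, as labelled, gave -1.71 and -0.48. The shift of TRIM45 was 1.62, ranging from 1.5 to 1.72 without each library in turn and 1.45 with all 24 libraries.

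**Figure D4:**
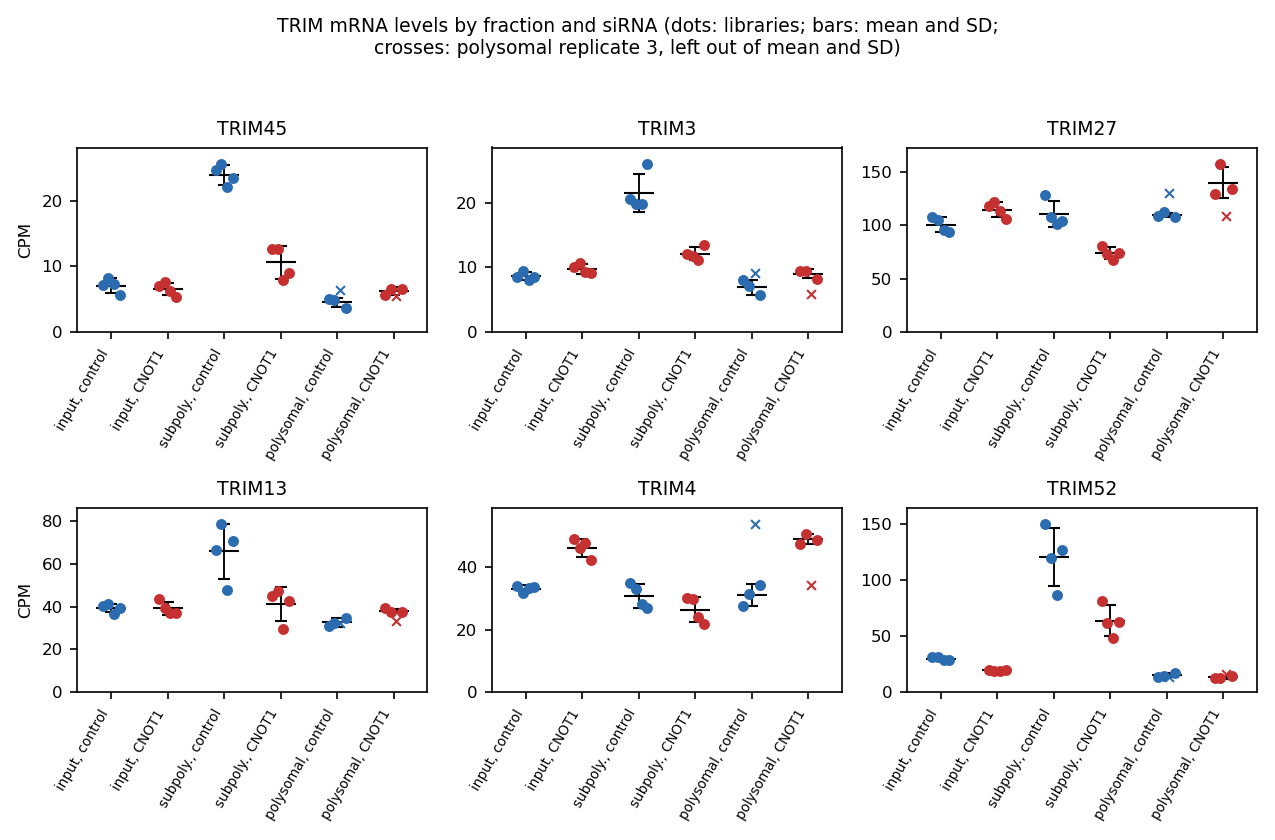
CPM of TRIM45, TRIM3, TRIM27, TRIM13, TRIM4 and TRIM52 in each input, subpolysomal and polysomal library of control and CNOT1 siRNA cells, with mean and SD as bars and the excluded polysomal replicate 3 libraries as crosses. Subpolysomal TRIM45 falls from 22 to 25.5 CPM to 7.96 to 12.7 CPM.

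TRIM3 had the next shift, 1.20, from ratios of -1.30, -1.42 and -2.09 to -0.35, -0.30 and -0.68. TRIM27, a PRY-SPRY ligase first found as a fusion partner of RET, shifted by 0.93: it fell in subpolysomal RNA (128, 108, 101 and 104 CPM to 81.1, 72.9, 67.6 and 74.2 CPM) and lay at 109, 112 and 108 CPM against 129, 157 and 134 CPM in polysomal RNA. Neither fraction of TRIM27 overlapped. TRIM13, anchored in the endoplasmic reticulum, shifted by 0.90, with 66.2, 78.3, 47.9 and 70.5 CPM against 44.8, 47.3, 29.4 and 42.7 CPM in subpolysomal RNA and 30.9, 32.1 and 34.7 CPM against 39.1, 37.6 and 37.4 CPM in polysomal RNA. The groups of TRIM13 did not overlap in either fraction, but its polysomal rise (0.23) was not called.

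TRIM4, which modifies RIG-I, shifted by 0.87. Its polysomal level moved (27.4, 31.4 and 34.3 CPM to 47.2, 50.5 and 48.6 CPM). Its subpolysomal groups overlapped (34.9, 32.8, 28 and 26.7 CPM against 29.9, 29.6, 24.1 and 21.8 CPM). Input TRIM4 rose too, from 33.9, 31.5, 33.1 and 33.7 CPM to 48.7, 46, 47.4 and 42.1 CPM, without overlap. TRIM52 shifted by 0.74, mostly by its subpolysomal fall, with polysomal groups that overlapped (13.8, 14.4 and 17.2 against 12.4, 12.9 and 14.7 CPM). TRIM71 shifted by 0.71, with the rises in polysomal and in input RNA given above. TRIM62 (0.64), TRIM39 (0.58), TRIM35 (0.48) and TRIM26 (0.34) had smaller shifts. That of TRIM26 no longer passed the FDR threshold with DESeq2 or RLE factors. It was also lost without control subpolysomal replicate 3 or 4, or CNOT1 siRNA subpolysomal replicate 1, 2 or 4. TRIM39 shares 29.5% of its exon length with the TRIM39-RPP21 readthrough gene, and counts of the pair may be split. Other genes on the same strand likewise cover 23.5% of TRIM16, 20% of TRIM2, 14% of TRIM59 and 13.4% of TRIM13.

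Because the family was selected on this contrast, the number of members past the FDR threshold is no evidence about the family: it was 11 (26.8%) towards polysomes and 0 away, and over all genes 9.99% and 7.51%. The median member shifted by 0.27 and the median gene by 0.07, and 29 of 41 members were above 0. The lowest members were TRIM59 and TRIM16L at -0.33. Without control polysomal replicate 2 the count was 7, with TRIM26, TRIM35, TRIM52 and TRIM62 lost. With all 24 libraries as labelled 6 passed, beside 5.66% of all genes, and TRIM71 was then at 0.19 and TRIM26 at 0.09. The 12 E2 genes gave 0 called towards and 5 away (median -0.57), and of 4 tested TRIM-family genes with other symbols (among MID1, MID2, PML, RNF207 and MEFV) 1 was called towards. The median ratio of the members exceeded that of all genes by 0.083 ± 0.075 (SD, n = 3) in control gradients and by 0.263 ± 0.109 in CNOT1 siRNA gradients.

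**Figure D5:**
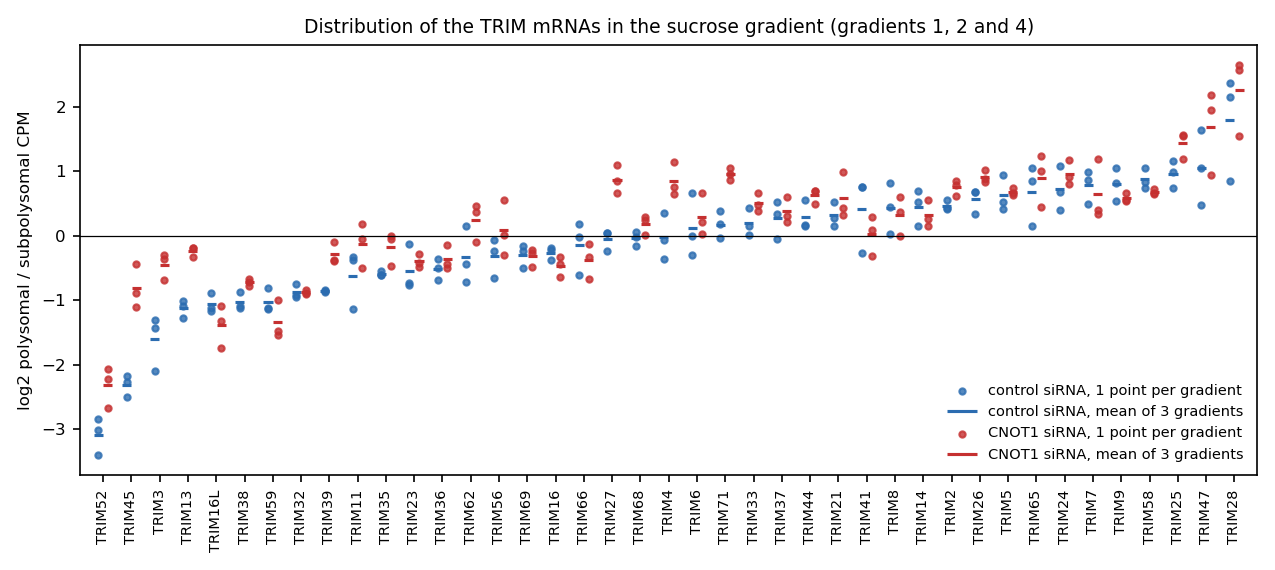
Log2 ratio of polysomal to subpolysomal CPM of each TRIM mRNA in gradients 1, 2 and 4 of control and CNOT1 siRNA cells. TRIM52, TRIM45 and TRIM3 have the lowest control ratios and TRIM28 the highest, and TRIM45 lies between -2.49 and -2.17 in controls and between -1.10 and -0.43 after CNOT1 siRNA.

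After TNRC6A/B siRNA no TRIM mRNA was called by edgeR, and neither was any other of the 14064 genes tested (0%). No member had an unadjusted p below 0.05, against 289 genes (2.05%), and DESeq2 called 0 members and 1 gene. TNRC6A itself was at -1.80 ± 0.29 without passing the adjustment (FDR 1 by edgeR). TRIM71 lay at 20.1 and 17.7 CPM in controls and 33 and 25.6 CPM after the siRNAs (log2 0.63 ± 0.27, FDR 1 by edgeR), without overlap. TRIM8 lay at 22.8 and 8.18 CPM against 23.2 and 9.66 CPM, so its replicates differed more than its groups. TRIM66 was at -0.64 and TRIM45 at -0.29, the latter at 7.65 and 8.99 CPM against 6.65 and 6.99 CPM.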

How the data were processed

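All 40 RNA-Seq libraries came from HEK293 cells and form 12 groups, as the labels give them. The deposited counts are unnormalised whole numbers per gene symbol, which the authors made with TopHat2 alignment to hg19 and HTSeq after base calling with bcl2fastq 2.0 (per the submitters' processing notes and the study's methods). The strand option of the counting is not given in the sources used here. A further deposited table holds the authors' own tests of each immunoprecipitate, with log2 values (fold changes and mean CPM), a likelihood ratio score, and p-value and FDR columns, and was not used.

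Counts were fitted with edgeR 4.0.16 (limma 3.58.1, package data.table, version 1.17.8) in R 4.3.3, once per experiment, with filterByExpr, TMM factors and two-sided quasi-likelihood F-tests on group means. Calls needed an FDR (Benjamini-Hochberg, over every gene tested) below 0.05, in each of 13 comparisons. DESeq2 1.42.0 was an alternative. The gradient fit used 22 of 24 libraries, since the polysomal libraries labelled replicate 3 went against their labels. Their printed CPM come from the scaling over all 24. Polysome ratios used a pseudocount of 0.5 CPM.

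Libraries held 15.4 to 46 M counts, and depths cover counting error only, as reads carry no molecular identifiers. Replicates differed by more than counting noise (lowest chi-square per degree of freedom 5.49). Replicate numbers in the titles were taken to pair libraries where each pair deviated together: r was 0.19 to 0.82 in the RIP comparisons, and 0.20 to 0.41, 0.63 to 0.77 and 0.34 to 0.64 for CNOT1 siRNA in input, subpolysomal and polysomal RNA. Libraries of unlike number reached r of 0.14, 0.53 and 0.3 in those siRNA comparisons. For eIF4A1 against total RNA they reached 0.31, above the lowest matched pair (0.27), so the pairing there is less certain. For RIP total RNA replicate 3 the description gives the number 2, and the title was used, so the blocked values against total RNA rest on that title. mRNA features came from GENCODE 44 mapped to GRCh37, with 1 transcript per gene.

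Genes were named by a rule: TRIM45, the NHL and TIF1 classes, TRIM25, TRIM56, up to 3 called members with the largest rise and fall per comparison, the 3 highest and lowest levels per kb, and the neighbours of the threshold. TRIM4, TRIM13, TRIM23, TRIM35, TRIM38, TRIM39, TRIM62 and TRIM65 were named after their values were seen. The members and all gene lists were chosen with earlier results of these data known.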

Additional observations from a re-analysis of the deposited data

Results flagged for a closer look

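In groups of 4 libraries, the named members were checked for a library far from the other 3 (4 groups, 27 genes, 108 checks), and 6 stood apart, where chance alone gives about 1 in 20. TRIM3 was at 25.9 CPM in control subpolysomal replicate 4, with the others at 19.8 to 20.5 CPM. TRIM25 was at 23 CPM in control subpolysomal replicate 2, with the others at 26.7 to 27 CPM. TRIM26 was at 59.5 CPM in CNOT1 siRNA subpolysomal replicate 3 (others 55.4 to 55.8 CPM). TRIM16 was at 17.1 CPM in control input replicate 1 (others 15.9 to 16.1 CPM) and at 16.3 CPM in CNOT1 siRNA input replicate 3 (others 14.3 to 14.6 CPM). TRIM7 was at 1.93 CPM in control input replicate 4 (others 1.66 to 1.68 CPM).

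The effect of CNOT1 siRNA in polysomal RNA less that in the subpolysomal pool lay past the FDR threshold for 11 members. The family was selected on this contrast, so the values are listed as a description and not as a test. On the log2 scale they were 1.62 for TRIM45, 1.20 for TRIM3, 0.93 for TRIM27, 0.90 for TRIM13, 0.87 for TRIM4, 0.74 for TRIM52, 0.71 for TRIM71, 0.64 for TRIM62, 0.58 for TRIM39, 0.48 for TRIM35 and 0.34 for TRIM26.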

How the results depend on the processing

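The numbers of TRIM mRNAs called moved by over 1.5 times under few settings, and the cause was not tested. Between eIF4A2 and eIF4A1 (0 called), DESeq2 called 1 and the replicate block 5. Between eIF4A2 and DDX6 (4 called), DESeq2 called 9, the block 15 and a fit of the compared libraries alone 2, with 1 to 4 without each library in turn (2 without eIF4A2 replicate 1 or DDX6 replicate 3, 1 without eIF4A2 replicate 3 or DDX6 replicate 2). Between DDX6 and eIF4A1 (0), the block called 3. For CNOT1 siRNA in input RNA (17), the compared libraries alone gave 26. In polysomal RNA (17), all 24 libraries as labelled gave 0. For the shift (11), no filter on low counts gave 7, the compared libraries alone 6, all 24 libraries as labelled 6, and single libraries left out 7 to 13, with 7 without control polysomal replicate 2. For TNRC6A/B siRNA (0), the block called 2 of 41 and 5.43% of all genes, but its 2 pairs (r 0.88) are too few to say that the numbers pair the samples. For the remaining comparisons the block gave 23 (eIF4A1), 29 (eIF4A2), 24 (DDX6), 34 and 32 (polysomal against subpolysomal RNA in control and CNOT1 siRNA cells), 23, 20 and 18 (CNOT1 siRNA in input, subpolysomal and polysomal RNA) and 14 (shift), and it ended no call. Polysomal against subpolysomal RNA showed no such pairing (lowest r -0.49). Without the filter, the split of polysomal against subpolysomal calls was 19 higher and 11 lower in control cells and 19 higher and 6 lower after CNOT1 siRNA. The single-gene results followed were those called in the main fit or with a log2 change of at least 2 SE. Of these 245, 130 kept their status, called or not called, under every alternative run for them. Of the values under alternatives, 2757 kept that status, 263 lost a call, 90 gained a call and 0 reversed in sign.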
